A study of Homo sapiens with 12 samples.

Results

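Huh7 is a line grown from a human hepatocellular carcinoma. Its messenger RNA was sequenced after transfection with a miR-628-3p mimic, a synthetic RNA that acts as the mature microRNA, or with a control mimic, labelled mimics-NC, with 3 libraries in each group. All 6 libraries came from cells labelled WT that were kept in DMEM with fetal bovine serum, and the dose of mimic and the time of harvest are not given in the sources used here. Nothing in the labels says that the 3 libraries of a group came from separate cultures, so p-values measure only the spread between these libraries, which may be technical. The genes described are those with a mean of at least 1 FPKM over the 6 libraries, where FPKM is fragments per kilobase of exon, scaled to the fragments counted in the library. These were 12508 of the 60664 genes in the table, and 12452 of them had an annotated transcript from which base composition could be read. The series also holds 6 libraries of MHCC97H, another hepatocellular carcinoma line, with a pGreen-628 vector or an empty vector.

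A microRNA guides a silencing complex to messenger RNAs that pair with its seed, bases 2 to 8 counted from its 5′ end, mostly in the 3′ untranslated region (3′ UTR), and the paired messengers are destabilized and less translated. Messenger RNAs also differ widely in length and in the share of G and C bases. In human genes most of that difference sits at wobble positions, the last base of a codon, where synonymous codons allow a free choice of base, and in the UTRs. The mature sequence is shown because the seed defines the sites searched below, with the seed in capitals (RefSeq, GRCh38.p14, minus strand, chr15:55372954-55372974):
miR-628-3p: uCUAGUAAgaguggcagucga

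No read fell on MIR628, the gene of this microRNA, in any library, a count of 0 that leaves room for 3 reads in each by counting error alone. The libraries were made from poly-A RNA, which a mature microRNA or a mimic lacks, so the amount of mimic in the cells was not measured. CCPG1, the endoplasmic reticulum autophagy receptor gene in whose intron MIR628 lies, had 6.60, 5.71 and 6.67 FPKM in the miR-628-3p mimic libraries, against 3.21, 5.35 and 5.06 FPKM in the control mimic libraries. The groups did not overlap, and the difference of 0.42 on the log2 scale did not pass the limma test (SE 0.15, adjusted p = 0.070). Without control library 1 the difference was 0.24.

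Reads per library, worked back from the FPKM values, lay between 17023014 and 19578875 in the mimic group and between 16472932 and 19161262 in the control group. Mitochondrial genes took 6.76% to 7.71% of reads in the mimic libraries and 6.43% to 6.66% in the control libraries. All 10 hepatocyte and hepatoma markers were expressed, with ALB, serum albumin, at 6864 to 7886 FPKM in mimic and 6395 to 6882 FPKM in control libraries. Among the 6 endothelial markers TEK, KDR and EMCN were at 0 in every library, VWF reached 0.0058 and CDH5 0.015 FPKM, and PECAM1 made up nearly the whole sum, with the summed list at 2.25 to 2.37 FPKM in mimic and 2.00 to 2.32 in control libraries. Among the 6 leukocyte markers TYROBP was at 0 in every library, and lysozyme (LYZ) made up nearly the whole of a sum of 134 to 157 FPKM in mimic and 142 to 176 in control libraries. The 6 fibroblast markers summed to 61.3 to 66.1 FPKM in mimic and 44.0 to 55.7 in control libraries, most of it LUM, with COL1A2 at 4.78 to 6.31 FPKM in mimic and 5.49 to 6.05 in control libraries, COL1A1 at up to 0.020 in mimic and 0.058 in control libraries and DCN at up to 0.0086 and 0.0089. LUM differed by 0.35 on the log2 scale, and by 0.23 without control library 1. Mitochondrial reads and LUM moved with the groups, and their part in the results was not tested. In bulk RNA, fewer cells of a type and less RNA per cell cannot be told apart.

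The transcripts that rose with the miR-628-3p mimic were A- and U-rich and mostly long, and those that fell were G- and C-rich and shorter than the genes tested as a whole. At a Benjamini-Hochberg adjusted p under 0.05 in limma, 2642 of 12508 genes were called (21.1%), 844 of them higher (6.75%) and 1798 lower (14.4%). The higher ones had a median GC content of 40.2% and a median exon length of 4661 bases, and the lower ones 58.2% and 2118 bases, against 47.8% and 2809.5 bases over all genes tested. The changes were small: called genes had a median absolute log2 fold change of 0.29, and 14 were at least 2-fold higher and 2 at least 2-fold lower, the U6 pseudogene RNU6-705P and the unnamed gene ENSG00000258424. In 6102 genes (48.8%) the 3 mimic libraries did not overlap the 3 control libraries. The share of calls that were higher was 31.9% on the FPKM as deposited, 45.9% after rescaling each library to its median and 49.2% after quantile normalization.

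The number of calls rests on every library, since the smallest adjusted p was 0.027. Leaving out mimic library 1 or 3 left 0 calls (smallest adjusted p 0.067 and 0.072, with 4488 and 4401 genes at an unadjusted p under 0.05). Leaving out mimic library 2 left 4 calls (MRPL23, MIR186, MIR7111 and CBSL, a near-identical copy of CBS) and control library 2 left 1, which was CENPE, while leaving out control library 1 or 3 left 929 and 1669. Each of the 2642 called genes kept its direction in all 6 of these fits. That is no separate support, since these libraries also chose the genes. Where the groups do not overlap, leaving out 1 library cannot change the direction. Calls named below are those of the fit over 6 libraries and are lost in the same way, except where stated.

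Above 35% GC the median fold change was lower in each higher band of GC content. The 137 genes under 35% GC had a median log2 fold change of 0.19, with 20 called higher and 0 lower. Genes with 35% to 40% GC had a median log2 fold change of 0.20, with 380 called higher and 5 lower of 1615. Genes with 40% to 45% had a median of 0.085, with 385 higher and 23 lower of 3002. The median was -0.031 at 45% to 50%, -0.13 at 50% to 55%, -0.21 at 55% to 60% and -0.24 at 60% to 65%. In that last band 2 genes were called higher and 508 lower of 1207. Across 12452 genes the rank correlation of GC content with the fold change was -0.74, given as a description, since genes are not independent replicates. GC content and log length together accounted for 47.4% of the variance of the fold changes.

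**Figure D1:**
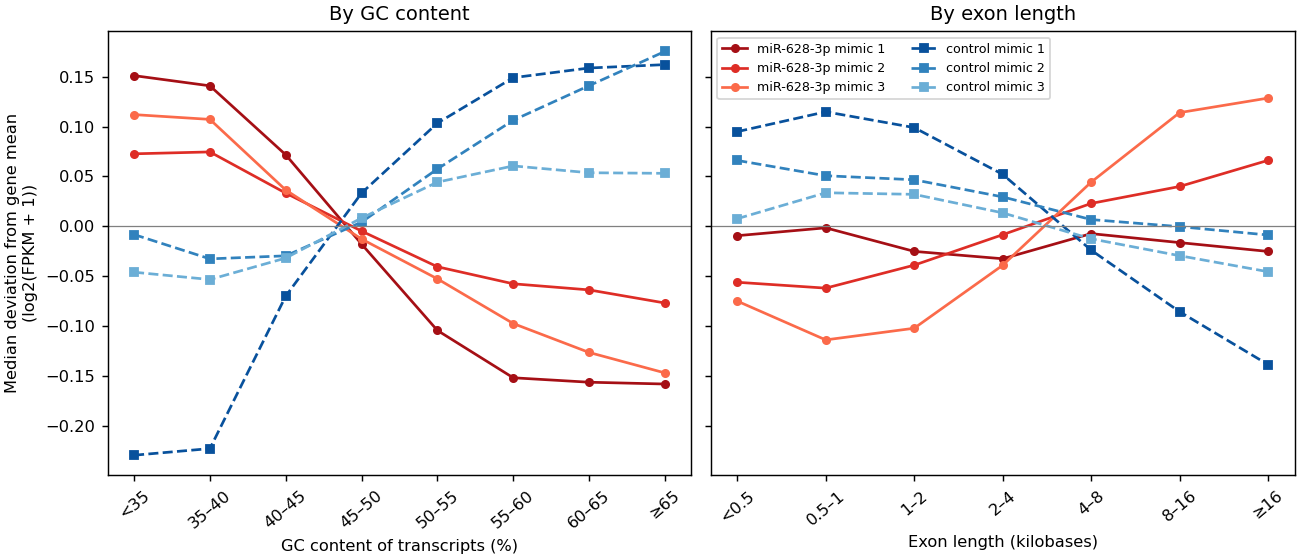
Median deviation of each library from the mean of the 6, on the log2(FPKM + 1) scale, for genes grouped by GC content in percent (left) and by exon length in kilobases (right). The 3 miR-628-3p mimic libraries (circles, solid) lie above the 3 control mimic libraries (squares, dashed) below 45% GC and under them above 50% GC, while by length mimic library 1 stays nearly flat.

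The order held library by library, with unequal size. Between 35% and 40% GC the median deviation from the gene's mean was 0.14, 0.075 and 0.11 in mimic libraries 1 to 3, against -0.22, -0.032 and -0.053 in control libraries 1 to 3. Between 60% and 65% GC it was -0.16, -0.063 and -0.13 in the mimic libraries, against 0.16, 0.14 and 0.054 in the control libraries. Control library 1 lay farthest out at the A- and U-rich end, and control library 3 moved least at the G- and C-rich end. The mean GC content of transcripts weighted by their reads was 46.7%, 47.0% and 46.8% in the mimic libraries and 47.8%, 47.5% and 47.4% in the control libraries, so the groups did not overlap by this measure either.

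Coding stretches show what this difference looks like in sequence. The 20 codons at the middle of the longest coding sequence are given for the pair of long, low-GC genes with the largest rises and the pair of long, high-GC genes with the largest falls, with each G or C at the last position of a codon in capitals (GENCODE release 29, GRCh38):
CENPE: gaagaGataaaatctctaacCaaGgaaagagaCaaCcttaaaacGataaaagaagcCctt
AKAP9: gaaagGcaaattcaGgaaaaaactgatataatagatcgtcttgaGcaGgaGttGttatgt
LRP3: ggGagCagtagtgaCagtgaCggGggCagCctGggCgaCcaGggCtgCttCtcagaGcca
SCAF1: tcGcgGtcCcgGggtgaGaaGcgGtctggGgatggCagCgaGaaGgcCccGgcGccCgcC
The stretches are codons 1342 to 1361 of CENPE (chromosome 4), 1946 to 1965 of AKAP9 (chromosome 7), 376 to 395 of LRP3 and 647 to 666 of SCAF1 (both chromosome 19). G or C stood at the last position of 7, 6, 15 and 17 of the 20 codons in that order, and over the whole coding sequence at 31.7% in both CENPE and AKAP9, 82.1% in LRP3 and 78.8% in SCAF1.

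Length gave a shallower order that was not shared by all mimic libraries. Genes of 1 to 2 kilobases of exon had a median log2 fold change of -0.12, with 40 called higher and 555 lower of 2370. Genes of 4 to 8 kilobases had a median of 0.031, with 411 higher and 236 lower of 3311. Those of 8 to 16 kilobases had a median of 0.087, with 99 higher and 19 lower of 809. The rank correlation of exon length with the fold change over these genes was 0.30, and that of length with GC content was -0.22. In genes of 8 to 16 kilobases the median deviation was -0.016, 0.040 and 0.11 in mimic libraries 1 to 3, against -0.085, -0.00017 and -0.029 in control libraries 1 to 3. Mimic library 3 was the highest and control library 1 the lowest, and mimic library 1 lay among the control libraries.

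Setting length against GC content separated the trends. With the genes split into 3 classes of equal number at 1946 and 3996 bases and at 43.9% and 52.7% GC, long low-GC genes had a median log2 fold change of 0.18, with 461 called higher and 1 lower of 1912. Short low-GC genes had a median of 0.051, with 58 higher and 15 lower of 965. Short high-GC genes had a median of -0.23, with 5 higher and 672 lower of 1661, and long high-GC genes had -0.18, with 1 higher and 215 lower of 911. At low GC content the median thus differed with length by more than at high GC content, and in both length classes its sign followed GC content. What gave the libraries this order was not tested.

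**Figure D2:**
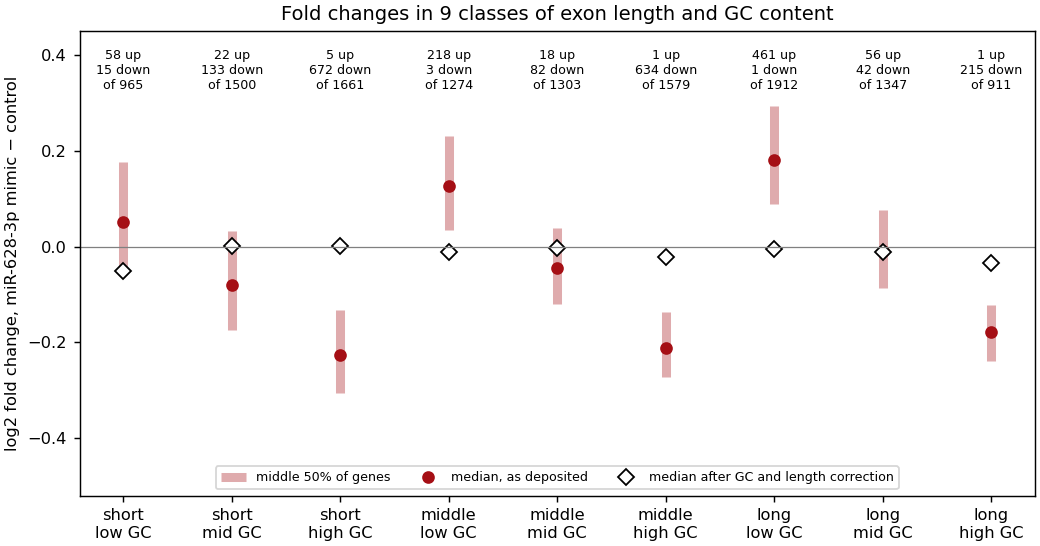
Log2 fold change, miR-628-3p mimic minus control mimic, in 9 classes of exon length and GC content (3 classes of each). Filled points are medians as deposited, with bars over the middle 50% of genes, open diamonds are medians after the GC and length correction, and the text gives genes called higher and lower of those tested. Low-GC classes lie above 0 and high-GC classes below it at each length, and the diamonds lie between -0.051 and 0.0010.

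Each library was given 1 slope, that of its deviations on GC content, which makes the library and not the gene the unit of the test. The slopes per 10 points of GC were -0.120, -0.057 and -0.092 in mimic libraries 1 to 3, against 0.155, 0.072 and 0.043 in control libraries 1 to 3, on the log2 scale. All mimic slopes were below 0 and all control slopes above it, a difference of -0.180. Slopes of deviations from the mean of the 6 libraries sum to 0 by construction. Their signs thus add nothing to the groups lying apart. The exact two-sided permutation test gave p = 0.1 (n = 3 and 3), the smallest value that 3 libraries against 3 can give, and 0.175 after adjustment over the 7 relations tested. At equal length the GC difference was -0.173, with the groups again apart (exact p = 0.1, adjusted 0.175).

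The slopes per doubling of exon length were -0.0017, 0.023 and 0.044 in mimic libraries 1 to 3, against -0.046, -0.014 and -0.0059 in control libraries 1 to 3. They did not overlap, with a difference of 0.044 (exact permutation p = 0.1, adjusted 0.175, n = 3 and 3). At equal GC content they did overlap. The slopes were then -0.014, 0.017 and 0.036 in the mimic libraries and -0.031, -0.0067 and -0.0016 in the control libraries, a difference of 0.026 (exact permutation p = 0.3, adjusted 0.42). Mimic library 1, with the steepest GC slope of its group, lay below all but control library 1 in length slope at equal GC content.

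**Figure D3:**
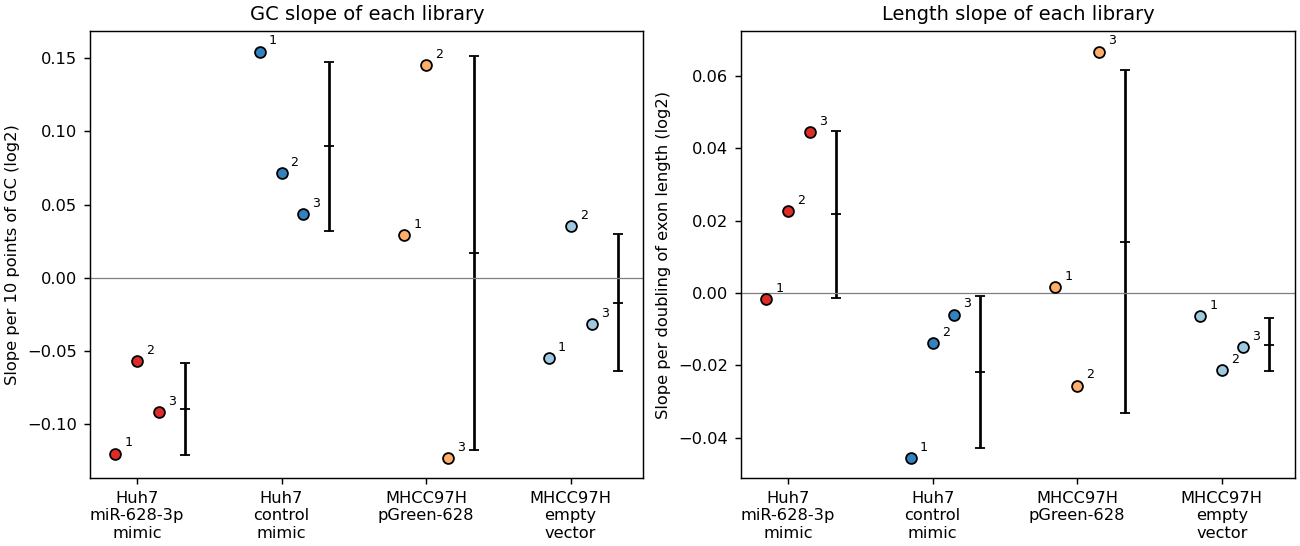
Slope of each library's deviations from the gene means on GC content per 10 points (left) and on exon length per doubling (right), both on the log2(FPKM + 1) scale, in the 4 groups of the series. Numbers mark replicates and bars show mean and SD (n = 3). The Huh7 groups lie apart on GC slope, at -0.120 to -0.057 in mimic and 0.043 to 0.155 in control libraries, while the MHCC97H pGreen-628 libraries spread from -0.123 to 0.146.

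In MHCC97H, where 680 of 12670 genes were called (5.37%), the GC slopes did not follow the groups. They were 0.029, 0.146 and -0.123 in pGreen-628 libraries 1 to 3, against -0.055, 0.035 and -0.032 in empty vector libraries 1 to 3. Over the 10910 genes tested in both lines the group difference was -0.185 in Huh7 and 0.035 in MHCC97H, and these differed by -0.220 (exact permutation over 400 splits within lines, p = 0.06, adjusted 0.175). The difference between lines was -0.294 without pGreen-628 library 3, and between -0.152 and -0.247 without any other single library. Over the genes tested in each line, GC slopes ran from -0.123 to 0.146 in the 3 pGreen-628 libraries and from -0.120 to 0.155 in the 6 Huh7 libraries.

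The 4 protein-coding genes that rose most were long and low in GC. CENPE, the kinetochore motor that carries chromosomes to the spindle equator (chromosome 4, 103105349 to 103198445), had 16.4, 16.5 and 19.4 FPKM in the mimic libraries, against 2.53, 5.13 and 4.39 FPKM in the control libraries. Every mimic library stood above every control library, a difference of 1.91 on the log2 scale (limma, SE 0.18, adjusted p = 0.027) and of 1.68 without control library 1. Its call held in 15 of 19 alternatives. Its transcript is 35.4% GC and 8541 bases long.

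AKAP9, a scaffold of the centrosome and Golgi (chromosome 7, 91940840 to 92110673), had 7.12, 7.21 and 9.65 FPKM in the mimic libraries, against 1.29, 3.56 and 2.92 FPKM in the control libraries. GOLGA4, a tethering golgin (chromosome 3, 37243177 to 37366751), had 32.6, 33.1 and 41.9 FPKM in the mimic libraries, against 6.74, 19.4 and 17.1 FPKM in the control libraries. KIF20B, a mitotic kinesin (chromosome 10, 89701590 to 89774939), had 9.67, 9.91 and 11.1 FPKM in the mimic libraries, against 2.29, 5.23 and 4.00 FPKM in the control libraries. In all 3 genes the groups were apart and control library 1 was the lowest of the 6. Their log2 fold changes were 1.37, 1.37 and 1.26 in that order, and 1.08, 0.93 and 1.00 without control library 1.

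Other long or middle-length, low-GC genes rose too. Those named here beside CEP290 are the remaining protein-coding genes called at least 2-fold higher, with CENPF and ASPM taken up among the mitosis genes, and were chosen after their values were seen. CEP290, of the base of the cilium, had 3.71, 3.09 and 4.18 FPKM in the mimic libraries, against 0.759, 1.48 and 1.37 FPKM in the control libraries (log2 fold change 1.09). ATRX, a chromatin remodeller, had 11.1, 11.3 and 14.1 FPKM in the mimic libraries, against 2.77, 7.79 and 6.75 FPKM in the control libraries (1.04, and 0.67 without control library 1). ANKRD12, SGO2, which guards sister chromatid cohesion, and ESF1, a nucleolar protein, rose by 1.03, 1.07 and 1.12, and by 0.76, 0.73 and 0.80 without control library 1. All of these stood apart between groups with control library 1 lowest. Of the 14 genes at least 2-fold higher, 11 were protein-coding, with 34.2% to 40.7% GC. The other 3 were short noncoding genes, the mitochondrial tRNA genes MT-TW and MT-TT and the small nucleolar RNA gene SNORD83A.

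**Figure D4:**
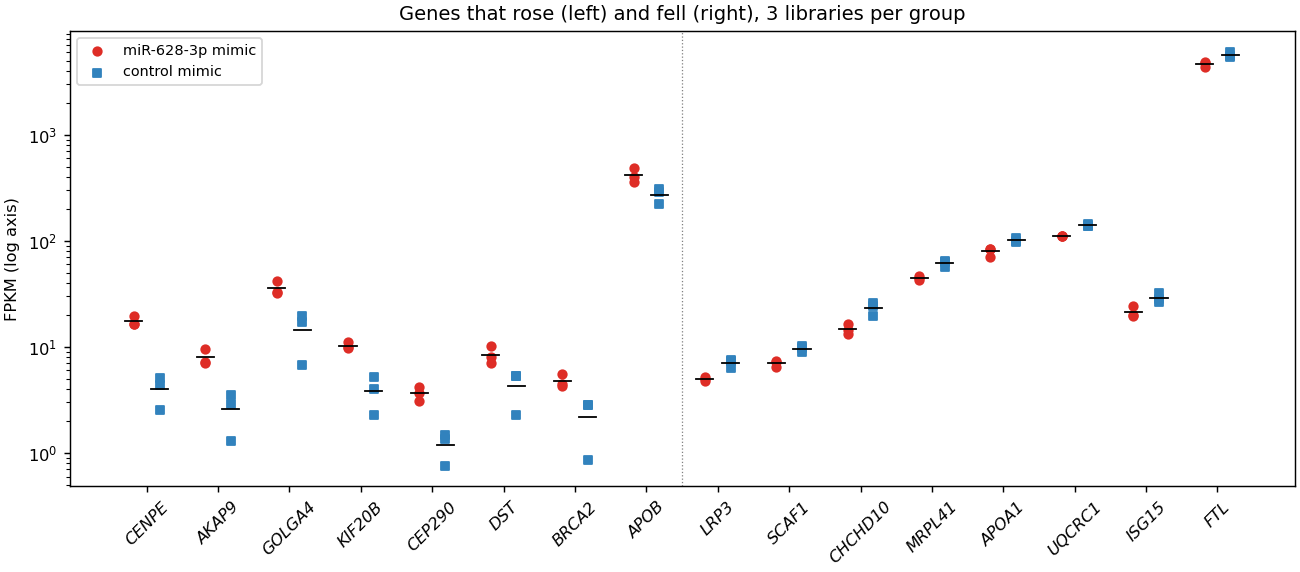
FPKM on a log axis for 8 genes that rose (left of the dotted line) and 8 that fell (right), with miR-628-3p mimic libraries as circles, control mimic libraries as squares and bars at the means of 3 libraries. No group overlaps, and control library 1 is the lowest of the 6 in CENPE, at 2.53 FPKM.

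Long genes at the other end of the GC scale fell. LRP3, a receptor of the LDL receptor family (66.0% GC, 4058 bases), had 5.18, 5.02 and 4.80 FPKM in the mimic libraries, against 7.36, 7.48 and 6.33 FPKM in the control libraries (-0.42 on the log2 scale, SE 0.074, adjusted p = 0.027). SCAF1, which binds the tail of RNA polymerase II, had 6.50, 7.18 and 7.33 FPKM in the mimic libraries, against 9.67, 10.2 and 9.02 FPKM in the control libraries. TOR4A, a torsin family ATPase, and BCAR1, an adaptor of focal adhesions, both fell by 0.41 on the log2 scale. In each of the 4 genes all mimic libraries lay under all control libraries, and without control library 1 their differences were -0.42 to -0.39. No long high-GC gene met the naming rule for a rise.

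Short, high-GC genes fell by more. CHCHD10, a mitochondrial intermembrane protein (66.7% GC, 700 bases), had 14.5, 16.3 and 13.3 FPKM in the mimic libraries, against 24.5, 26.0 and 19.5 FPKM in the control libraries (-0.63 on the log2 scale, SE 0.11, adjusted p = 0.027). MRPL23, a mitochondrial ribosomal protein, had 12.7, 21.1 and 12.4 FPKM in the mimic libraries, against 22.5, 23.7 and 25.3 FPKM in the control libraries. Mimic library 2 lay close to the control libraries for MRPL23, whose log2 fold change was -0.64 with it and -0.87 without it. DYNLRB1, a dynein light chain, and BLOC1S1, of the lysosome positioning complex, both fell by 0.59. Their annotated spans overlap another protein-coding gene on the same strand, so how reads were divided is uncertain.

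Short, low-GC genes moved in both directions. GNGT1, a G protein gamma subunit, rose by 0.55, RBM41, an RNA-binding protein, by 0.53, and CENPK, of the inner kinetochore, by 0.51 (0.32 without control library 1). CYP3A5, a drug-metabolizing cytochrome P450, had 14.7, 14.1 and 14.4 FPKM in the mimic libraries, against 7.63, 10.3 and 11.7 FPKM in the control libraries (log2 fold change 0.52). Against these, EIF1B, related to translation initiation factor EIF1, had 81.9, 83.5 and 81.2 FPKM in the mimic libraries, against 99.5, 92.6 and 91.7 FPKM in the control libraries (-0.20). ADPRM, an ADP-ribose phosphatase, fell by 0.25 and PSMA2, a proteasome subunit, by 0.43. PSMA2 lay near 1 FPKM, and its span overlaps another protein-coding gene on the same strand.

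A few genes ran against their class. BTG1, an antiproliferative factor, was the 1 called fall among long low-GC genes, at 29.6, 30.8 and 30.4 FPKM in the mimic libraries, against 37.2, 33.8 and 33.6 FPKM in the control libraries (log2 fold change -0.20). Its transcript is 38.7% GC, while the last positions of its codons are 61.6% GC. Among short high-GC genes YJEFN3 rose by 0.54 and CDK5RAP3, which acts in protein modification by UFM1, by 0.42. YJEFN3 overlaps NDUFA13 on the same strand. CDK5RAP3 had 2.75, 2.35 and 2.42 FPKM in the mimic libraries, against 1.37, 1.59 and 1.95 FPKM in the control libraries. Genes lower than their GC content and length would place them included BEST1, a chloride channel (-0.65), CRLS1, which makes cardiolipin (-0.34), and NEDD8, a ubiquitin-like modifier (-0.50), of which CRLS1 and NEDD8 overlap a same-strand protein-coding gene and BEST1 overlaps FTH1 on the other strand.

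The fold changes tracked the composition of the mature transcript more closely than that of the promoter. Over protein-coding genes, the rank correlation of the fold change with GC content was -0.80 for whole transcripts (10481 genes), -0.76 for the last positions of codons, -0.59 for the other 2 positions and -0.73 for 3′ UTRs. It was -0.25 for 5′ UTRs (9868 genes) and -0.18 for promoters, taken as 250 bases before to 50 after the start in RefSeq (6094 genes matched). Fitted together over the 5685 genes that had all values, 1 SD of GC at the last codon position went with -0.073, of 3′ UTR GC with -0.061, at the other 2 positions with -0.038, of 5′ UTR GC with -0.010 and of promoter GC with -0.0022. These values describe genes of the same libraries and were given no test.

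Coding sequence and 3′ UTR each added to the order where the other was held. Among genes with low-GC coding sequence, the median log2 fold change was 0.18 with a low-GC 3′ UTR (2370 genes), 0.082 with a middle one (1046 genes) and -0.0084 with a high-GC one (42 genes). Among genes with high-GC coding sequence it was -0.045 with a low-GC 3′ UTR (180 genes), -0.14 with a middle one (674 genes) and -0.23 with a high-GC one (2604 genes). The rank correlation of coding length with the fold change was 0.27, and that of 3′ UTR length was 0.30. After the GC and length correction these were 0.28 and -0.18. Both lengths are parts of the exon length that the correction takes out, so opposite signs are partly built in. In the joint fit over 5685 genes, 1 SD of log coding length went with 0.054 and of log 3′ UTR length with 0.018.

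The order held at each level of expression. The GC slope difference was -0.139 among 4456 genes of 1 to 5 FPKM, -0.208 among 4598 of 5 to 20 FPKM, -0.211 among 2736 of 20 to 100 FPKM and -0.181 among 718 above 100 FPKM, and mimic and control slopes did not overlap in any of the 4. Among the 10 most abundant protein-coding genes, 8 were mitochondrial transcripts, and none of these passed the test. MT-CO1, a cytochrome c oxidase subunit, came nearest, at 0.25 on the log2 scale (adjusted p = 0.054). ALB did not pass (0.13, adjusted p = 0.26). FTL, the ferritin light chain (56.3% GC), had 4766, 4850 and 4314 FPKM in the mimic libraries, against 6039, 5488 and 5433 FPKM in the control libraries, and fell by 0.28.

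Chromosomes followed their gene composition. Chromosome 19, where the tested genes had a median of 58.4% GC, had 20 genes called higher and 263 lower of 803 (median log2 fold change -0.19). Chromosome 22 had 2 higher and 85 lower of 268 (-0.19, 55.3% GC). Chromosome 4 had 58 higher and 26 lower of 483 (0.066, 42.7% GC) and chromosome 13 had 28 higher and 6 lower of 227 (0.064, 42.7% GC). After the correction the medians of these 4 lay between -0.050 and 0.0044. Against 6.75% higher and 14.4% lower over all genes tested, long noncoding RNAs had 32 called higher (2.79%) and 68 lower (5.92%) of 1149. Among them MALAT1, an abundant nuclear transcript (39.5% GC, 5340 bases), had 67.4, 60.5 and 69.1 FPKM in the mimic libraries, against 25.4, 43.1 and 34.2 FPKM in the control libraries (0.95 on the log2 scale, SE 0.16, adjusted p = 0.027), with the groups apart. MALAT1 was chosen after its values were seen.

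Several functional groups held rises among their low-GC members and falls among their high-GC members, while families of ribosomal and respiratory genes had mostly negative fold changes. The lists below were chosen with earlier results of these data known, and their counts are read against 6.75% higher and 14.4% lower over all genes tested, whose median log2 fold change was -0.046. Where more members are named than the 2 per direction with the smallest p, the further ones were chosen after their values were seen. Of 28 mitosis and spindle genes 12 rose and 7 fell. All 16 members in the low-GC class had positive fold changes, with a median of 0.45, and all 6 in the high-GC class negative ones, with a median of -0.28. The large kinetochore and spindle proteins CENPF (1.10), ASPM (1.09) and KIF20B rose, with TOP2A, DNA topoisomerase II alpha (0.57), and the checkpoint kinase BUB1 (0.20). Without control library 1, CENPF was at 0.69 and ASPM at 0.66. The mitotic kinase genes AURKB (-0.28) and PLK1 (-0.27), the checkpoint target CDC20 (-0.30), BIRC5, survivin (-0.26), and SPC24, of the NDC80 complex (-0.34), fell.

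PLK1 had 29.5, 34.3 and 35.3 FPKM in the mimic libraries, against 42.0, 40.1 and 38.1 FPKM in the control libraries, while CENPF had 23.7, 25.5 and 31.8 FPKM in the mimic libraries, against 6.45, 16.5 and 15.8 FPKM in the control libraries. In both genes the groups were apart, in opposite directions, and the cause was not tested. Both were chosen after their values were seen. PLK1 is 57.3% GC and 2160 bases, and CENPF is 40.7% GC and 10290 bases.

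The 17 giant cytoskeletal linkers tested are all long, with 6914 to 24828 bases of exon. Of these 4 rose and 0 fell, and the rank correlation of GC content with the fold change was -0.98, and that of exon length 0.48 (17 genes of the same libraries). DST, dystonin, which links keratin, actin and microtubules (42.0% GC), had 7.12, 7.99 and 10.3 FPKM in the mimic libraries, against 2.29, 5.29 and 5.27 FPKM in the control libraries (0.89, and 0.58 without control library 1). UTRN, utrophin (43.6% GC), rose by 0.52, DSP, desmoplakin, by 0.26 and MACF1, a microtubule and actin cross-linker, by 0.25. At the other end PLEC, plectin (66.7% GC), had 3.41, 4.70 and 4.92 FPKM in the mimic libraries, against 5.54, 5.70 and 5.43 FPKM in the control libraries. Its groups were apart, and it did not pass the test (-0.31, adjusted p = 0.075).

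Genes of DNA repair showed the same split, and those of the centrosome showed it mainly at low GC content. All 12 low-GC centrosome members had positive fold changes (median 0.52). Of the 7 high-GC ones 6 had negative fold changes (median -0.047), near the median of -0.046 over all genes tested. In the centrosome list 8 rose and 2 fell of 20, with PCM1 (0.55), CEP350 (0.62) and CEP192 (0.33) among the rises beside AKAP9 and CEP290, and the gamma-tubulin genes TUBG1 (-0.27) and TUBGCP2 (-0.25) the falls. In the DNA damage list 6 rose and 3 fell of 21. BRCA2 (36.3% GC, 11954 bases), which acts in repair by homologous recombination, had 4.46, 4.28 and 5.50 FPKM in the mimic libraries, against 0.859, 2.81 and 2.84 FPKM in the control libraries (0.93, and 0.58 without control library 1). The falls were POLD1, the catalytic subunit of polymerase delta (64.9% GC, -0.29), XRCC1, a single-strand break scaffold (-0.29), and ERCC2, a helicase of nucleotide excision repair (-0.29). Of 12 large ubiquitin ligases 5 rose and 0 fell, among them UBR1 (0.32). Of 13 Golgi coiled-coil genes 4 rose, with GOLGB1, giantin (0.97), and TRIP11 (0.89) beside GOLGA4, and 1 fell, GOLGA3 (-0.19). Without control library 1, GOLGB1 was at 0.60, TRIP11 at 0.55, PCM1 at 0.34 and CEP350 at 0.39.

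**Figure D5:**
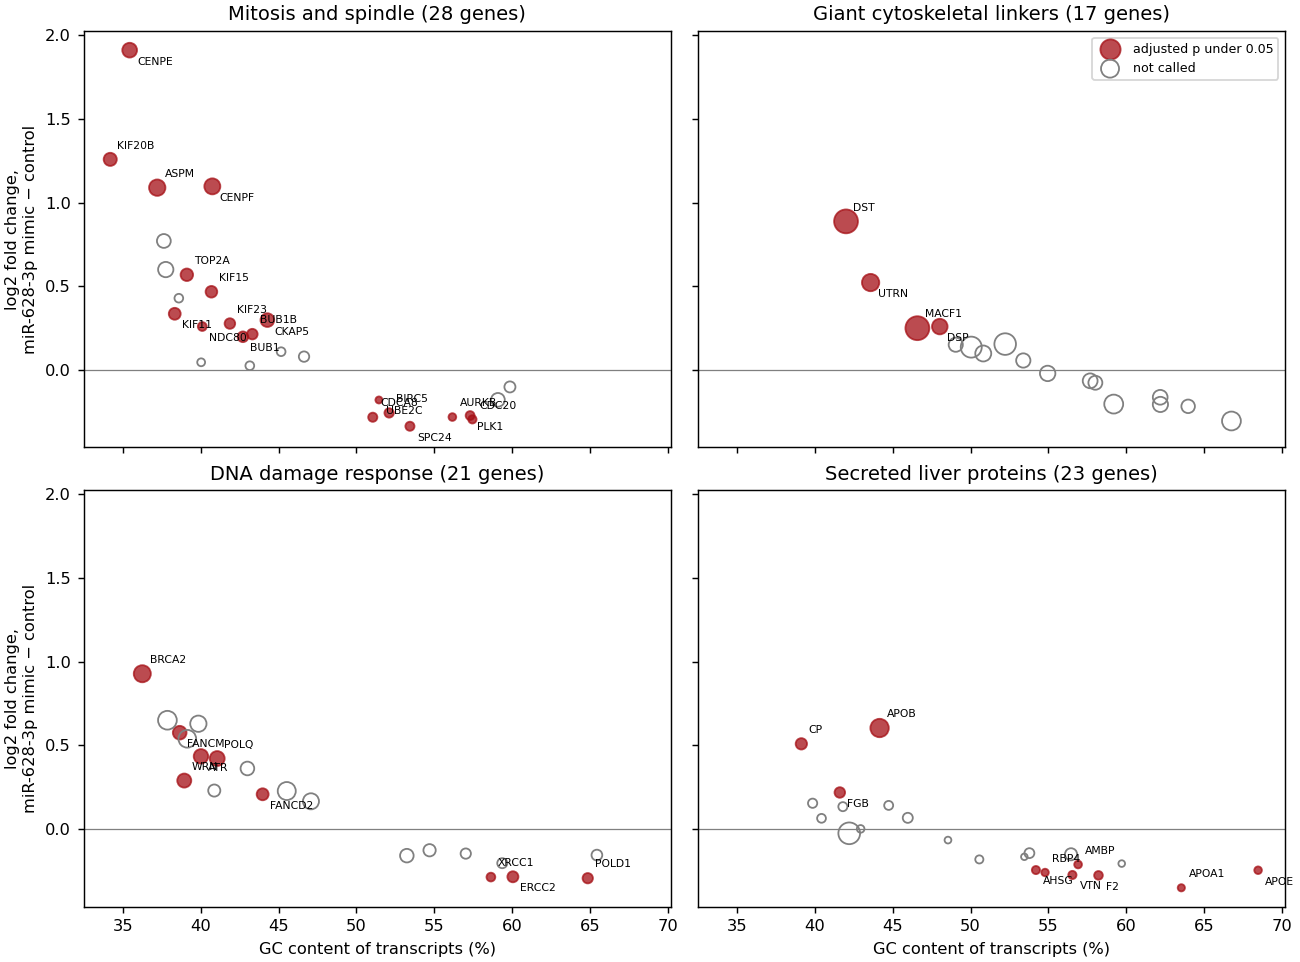
Log2 fold change, miR-628-3p mimic minus control mimic, against GC content of the transcripts in percent for 4 gene lists. Filled points passed an adjusted p of 0.05, open points did not, names are given for the filled ones, and the area grows with exon length. In each list the points run from positive at low GC content to negative at high GC content, from CENPE at 1.91 to SPC24 at -0.34 among mitosis genes.

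The liver's own secreted proteins divided in this way too, with 3 higher and 7 lower of 23. APOB, the large apolipoprotein of LDL (44.2% GC, 14121 bases), had 357, 399 and 484 FPKM in the mimic libraries, against 221, 305 and 291 FPKM in the control libraries (0.60). CP, the copper carrier ceruloplasmin (39.1% GC), rose by 0.51 (0.34 without control library 1) and FGB, the fibrinogen beta chain, by 0.22. APOA1, the main protein of HDL (63.5% GC, 899 bases), had 71.0, 83.7 and 84.0 FPKM in the mimic libraries, against 107, 99.1 and 98.1 FPKM in the control libraries (-0.35). F2, prothrombin (-0.28), VTN, vitronectin (-0.27), and APOE (-0.25) fell. For APOB and APOA1 the groups were apart in opposite directions.

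Families of short genes for ribosomes and mitochondria moved mostly down. Of 84 cytosolic ribosomal protein genes 0 rose and 20 fell (median -0.19), of 75 mitochondrial ribosomal protein genes 0 rose and 20 fell (-0.16), of 76 nuclear oxidative phosphorylation genes 0 rose and 25 fell (-0.19), and of 42 proteasome genes 1 rose and 12 fell (-0.15). With quantile scaling the medians were -0.050, -0.11, -0.13 and -0.070 in that order, and after the GC and length correction they were -0.069, -0.060, -0.11 and -0.050. Low-GC members were positive in 1 of 7 cytosolic ribosomal, 8 of 18 mitochondrial ribosomal and 3 of 18 oxidative phosphorylation genes. The proteasome genes differed, with 7 of 10 low-GC members positive (median 0.022) and all 13 high-GC members negative (median -0.20). Members named by the rule were RPS2 (-0.39), RPS29 (-0.45), MRPL41 (-0.44), UQCRC1 of complex III (-0.32), NDUFS6 of complex I (-0.42) and PSMD3 (-0.28). RPS29 is 295 bases long and 44.4% GC, and its fold change after the GC and length correction was -0.44. The 1 rise among proteasome genes was PSME4, an activator cap of 7250 bases and 41.5% GC (0.17). The 13 messengers of the mitochondrial genome had a median of 0.11 with no call.

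The list for the cell's response to double-stranded RNA gave 0 rises and 4 falls among 16 tested genes of 27 listed. This is 25% lower, against 14.4% of all genes tested. The list also followed GC content (rank correlation with the fold change -0.82). All 5 members in the high-GC class had negative fold changes, and 4 of 5 in the low-GC class positive ones. The list median was -0.058, and -0.023 after the GC and length correction, with 8 corrected values positive and 8 negative. IFNB1, interferon beta, had 0 reads in all 6 libraries. ISG15, a ubiquitin-like interferon product (64.1% GC, 637 bases), had 24.1, 20.1 and 19.6 FPKM in the mimic libraries, against 31.9, 26.8 and 28.5 FPKM in the control libraries (-0.44). The regulators IRF3 (-0.29) and IRF1 (-0.28) and the adaptor MAVS (-0.27) fell. The sensor IFIH1 (0.16, adjusted p = 0.17) and IFIT3 (0.15, adjusted p = 0.20) did not pass. In the microRNA pathway XRN1, an exonuclease that degrades decapped messengers, rose (0.36), and TARBP2 (-0.29) and DGCR8 (-0.19), partners of Dicer and Drosha, fell, of 15 tested. These 6.67% higher and 13.3% lower are near the shares of all genes. DICER1 had 5.20, 4.96 and 5.94 FPKM in the mimic libraries, against 3.32, 4.55 and 4.19 FPKM in the control libraries (0.35, adjusted p = 0.051).

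Large gene families whose members vary in composition gave both directions. Of 327 ZNF genes 30 rose and 16 fell. The 163 in the low-GC class had 153 positive fold changes (median 0.22), and the 68 in the high-GC class had 64 negative ones (-0.19). ZNF92 (34.1% GC) had 24.2, 22.3 and 27.2 FPKM in the mimic libraries, against 9.81, 17.0 and 15.2 FPKM in the control libraries (0.80), and ZNF444 (68.7% GC) had 16.5, 17.7 and 17.3 FPKM in the mimic libraries, against 23.3, 24.0 and 21.1 FPKM in the control libraries (-0.39). Of 26 kinesin genes 8 rose and 1 fell, KIF1C (-0.26, 54.9% GC). Of 190 SLC transporter genes 11 rose (5.79%) and 28 fell (14.7%), shares near those of all genes, with SLC38A1, a glutamine transporter (0.34), and SLC35A2, the Golgi UDP-galactose transporter (-0.35), as examples.

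A correction of each library for GC content and exon length, made without reference to group, left 1 call of 12452 genes (0.00803%), CENPE. At an unadjusted p under 0.05 it left 2753 genes (22.1%), against 5236 of 12508 (41.9%) before it. The corrected log2 fold change of CENPE was 1.62 (SE 0.11, adjusted p = 0.0076). The corrected values of GOLGA4, AKAP9 and KIF20B were 1.17, 1.08 and 0.97, and that of CEP290 was 0.80 (adjusted p = 0.085). These remained the larger part of the uncorrected values, whereas those of APOA1 (-0.070), UQCRC1 (-0.097), TUBG1 (-0.064) and IRF3 (-0.050) were the smaller part of theirs. CENPE, GOLGA4, AKAP9 and KIF20B were named in part for lying furthest from the GC and length fit. This contrast therefore follows in part from how the genes were named. Because group and GC slope run together in these libraries, a change that itself follows GC content is removed with the rest and cannot be told apart. HAVCR1, a cell surface receptor, and HIF1AN, which hydroxylates HIF1A, were among the 5 protein-coding genes of smallest p after the correction and were chosen after their values were seen. HAVCR1 had 54.29, 54.32 and 55.01 FPKM in the mimic libraries, against 44.97, 46.08 and 44.51 FPKM in the control libraries, and HIF1AN had 6.998, 7.411 and 8.048 FPKM in the mimic libraries, against 9.033, 9.015 and 9.073 FPKM in the control libraries (corrected 0.29 and -0.30, both with adjusted p = 0.11).

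Seed sites were compared with genes of like composition. A gene had a site where its longest annotated 3′ UTR held the seed match TTACTAG, and 866 of 10373 searched genes did. Their median 3′ UTR was 3393 bases, against 1265 bases in the 9507 without a site, and their transcripts were 42.0% GC, against 48.8%. Genes with a site had 110 called higher and 33 lower and a median log2 fold change of 0.081, against 664 higher and 1605 lower and -0.061 without a site. Within the 3 GC classes the medians lay closer together. They were 0.15 with and 0.15 without a site at low GC content, -0.024 and -0.043 at middle, and -0.18 and -0.21 at high. After the GC and length correction they were -0.035 with and -0.0074 without a site at low GC content, -0.027 and -0.0075 at middle, and -0.044 and -0.022 at high.

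With GC content and lengths in the model, the site coefficient was -0.00025, -0.00089 and 0.00025 in mimic libraries 1 to 3, against -0.0029, 0.0034 and 0.00034 in control libraries 1 to 3. The groups overlapped, with a difference of -0.00059 on the log2 scale (exact permutation p = 0.7, adjusted 0.7, n = 3 and 3). The sites of the 6 called genes with a site that fell most are printed with 10 bases on either side and the site in capitals (GENCODE release 29, sense strand):
SLC35A2: ctggatcatgTTACTAGttccgtcttt
OAF: aaggaagatgTTACTAGggaaggatga
MOB3A: attctatgtgTTACTAGcaaccggaaa
VAT1: tgtgtggcatTTACTAGccagagctct
DYNLL2: gctggtggcaTTACTAGaacttagcac
DYNLL2, other site: gactaattttTTACTAGgttctgagcc
RMND5B: agggattgggTTACTAGggccattatg
The first DYNLL2 site is followed by A, which makes it the 8-base match TTACTAGA. Of the 309 genes with such a match, 50 were called higher and 9 lower, at a median of 41.8% GC. Their median log2 fold change was 0.085, and -0.014 after the GC and length correction. SLC35A2 had 66.9, 74.9 and 69.1 FPKM in the mimic libraries, against 92.4, 91.2 and 86.6 FPKM in the control libraries. The 6 genes fell by 0.30 to 0.37 on the log2 scale, and 5 of them are 56.1% to 63.1% GC with corrected values between -0.14 and -0.12. DYNLL2, a dynein and myosin light chain of 47.7% GC, had 11.3, 13.4 and 13.8 FPKM in the mimic libraries, against 16.7, 16.2 and 15.1 FPKM in the control libraries, and its corrected value was -0.31.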

How the data were processed

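Poly-A RNA of Huh7 cells with a miR-628-3p mimic or a control mimic (3 libraries each) was sequenced in 150-base pairs with the strand kept by dUTP, per the labels' protocols. Reads were processed with HISAT2, HISAT and HTSeq on GRCh38, per the submitters' processing notes; the sources used here give neither versions nor the strand setting of the counting. The authors deposited FPKM per gene, scaled for exon length and library total. Values times exon length were divided by the smallest nonzero product of each library, assumed to stand for a counted fragment, called a read here. The results were whole numbers within 0.01 in 100% of cases and gave the depths reported.

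Genes with a mean of at least 1 FPKM were fitted as log2(FPKM + 1) with limma 3.58.1 (R 4.3.3, eBayes with trend), adjusted by Benjamini-Hochberg over all genes tested and called at 0.05. Fold changes are on that scale, which understates low genes. The range of depths gives abundant genes the firmer values. GC content came from GENCODE release 29 transcripts. Slopes used exact two-sided permutation tests over libraries (scipy 1.17.1). The correction fitted splines with 5 degrees of freedom to each library's deviations. Scripts were tested on simulated data. The named protein-coding genes were, among calls with groups apart, up to 4 per direction in each corner class of length and GC and 5 per direction furthest from the GC and length fit; the 10 most abundant; 2 called per direction and list (lists with 3 or more calls) of smallest p; and the 6 largest falls with a seed site. Of 109 named genes, 38 overlap another annotated gene on the same strand, where the split of reads is uncertain. The members and lists were chosen with earlier results of these data known. Alternatives tried were the pseudocount, filter, scaling, variance model, joint fit, replicate block, voom on recovered reads, correction, gene types and leaving out each library. A few list members are not reported here.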

Additional observations from a re-analysis of the deposited data

How the results depend on the processing

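The count of Huh7 genes called, 2642 as reported (Huh7 genes called higher 844, Huh7 genes called lower 1798), was between 2553 and 3540 with a pseudocount of 0.1 or 5, a minimum of 5 FPKM, median or quantile scaling, voom on recovered reads and protein-coding genes alone, of which quantile scaling gave 1352 higher, voom 1386 and protein-coding genes 1298. It fell to 1694 (458 higher) without the variance trend, 866 (165 higher, 701 lower) in a joint fit of all 12 libraries, 7 (4 and 3) with no filter and 1 (1 and 0) after the GC and length correction, with or without the replicate block. With the replicate block alone it was 1187 (330 higher, 857 lower). The numbers were not treated as pairs, since same-numbered libraries had deviations correlated at -0.015, -0.075 and 0.037, and not every library correlated best with its own number. Leaving out 1 library gave 0 to 1669 calls, 0 to 470 higher and 0 to 1199 lower. Signs reversed for ALB with quantile scaling (-0.027), PSME4 after the correction (-0.0050) and MT-CYB without mimic library 3 (-0.033, with 0.15 the highest of its leave-one-out values). The Huh7 seed-site difference was 0.126 with no covariates (exact permutation p = 0.1), 0.021 for 8-base sites alone (exact permutation p = 0.1) and 0.0014 with a pseudocount of 0.1, and ran from -0.0022 to 0.00098 when 1 library was left out. The Huh7 GC slope difference kept its sign in each alternative, from -0.147 to -0.203 without 1 library and at -0.180 within pairs (replicate block, exact p = 0.25). The Huh7 length slope difference was 0.081 in protein-coding genes, and 0.050 at equal GC content when measured on coding sequence. Without 1 library the difference in GC slope between lines ran from -0.294 to -0.152. Where no value above shows the reason for a change, the cause was not tested. Low counts limit genes near 1 FPKM, and 3 libraries a group cannot give an exact p under 0.1.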
